A study of Arabidopsis thaliana with 4 samples.

Results

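The salicylate pathway of Arabidopsis was followed here through 10 genes chosen by locus, which cover salicylate synthesis (ICS1, AT1G74710; SARD1, AT1G73805; CBP60g, AT5G26920), the immune regulators that act upstream of it (EDS1, AT3G48090, and PAD4, AT3G52430), the perception of the hormone (NPR1, AT1G64280, and NIMIN1, AT1G02450) and its pathogenesis-related outputs (PR1, AT2G14610, PR2, AT3G57260, and PR5, AT1G75040). All 10 were measured, by 16 probes in all, among 20461 genes on the array. The samples were untreated whole seedlings of the Col-0 ecotype, 14 days after germination, raised at 22 °C on agar in short days (8 h light, 16 h dark), and each gave 1 Agilent one-colour array. The groups were AtC3H17 OX, an overexpressor of the CCCH zinc finger gene AtC3H17 (2 arrays), atc3h17-1, whose name marks it as an allele of that gene (1 array), and WT (1 array). The promoter of the overexpression construct, the number of transgenic lines and the nature of the atc3h17-1 allele are not given in the sources used here.

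Salicylate is a phenolic hormone of plant immunity. In Arabidopsis most of it is made from chorismate by the chloroplast enzyme isochorismate synthase 1 (ICS1), whose gene is switched on by the related transcription factors SARD1 and CBP60g, and the EDS1 and PAD4 proteins form a complex that raises salicylate after pathogen recognition. NPR1 binds salicylate and acts with TGA transcription factors at target promoters. NIMIN proteins bind NPR1 and dampen it, and PR1, PR2 and PR5 encode secreted antimicrobial proteins whose transcripts are the classic readout of the pathway.

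The 4 arrays had 72.0% to 74.5% of their spots well above background, a mark set by the scanner software, and no saturated spot. Between the 2 AtC3H17 OX arrays the median absolute log2 gap was 0.0322 over 30339 probes, against 0.170 to 0.272 for pairs of arrays from different genotypes. This is below the SD between repeated spots on each of these 2 arrays (0.0941 and 0.0664 over 16 probes), although a median gap and an SD are unlike measures. Over 5698 genes, the array differences at 2 probes of a gene correlated at 0.006 for this pair. For the other pairs of arrays the correlation was 0.544 to 0.657. The pair, which the labels name as replicates 1 and 2, was counted as 1 sample. Each genotype was thus 1 sample, there was no check between plants, and no p-value is given. On the WT array repeated spots varied more, with an SD of 0.203, and every difference from WT rests on that array. AtC3H17 was taken to be AT2G02160, from general knowledge. Relative to WT, probe A_84_P803253 was 4.57-fold higher in AtC3H17 OX and at least 42.7-fold lower in atc3h17-1. Probe A_84_P847169 was 5.60-fold higher in AtC3H17 OX and 1.41-fold higher in atc3h17-1. Probe A_84_P221496 was at 0.981-fold in AtC3H17 OX and at least 502-fold lower in atc3h17-1.

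All levels below are the spot signal as a percentage of the same array's 75th percentile, and all differences are on the log2 scale, with the error that the scanner software assigns to the spots (±, combined over both groups). That error covers the measurement of a spot, not the spread between plants. A gene was called where it differed at least 2-fold, for AtC3H17 OX on both arrays in the same direction. Calls use the measured values, also where a genotype was not well above background and only a bound on the fold can be given. Such a bound leaves out the scanner software's error and holds only for this estimate of the spot background. Levels of different probes are not comparable with each other. In whole seedlings, fewer cells of a type and less RNA per cell cannot be told apart.

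**Figure D1:**
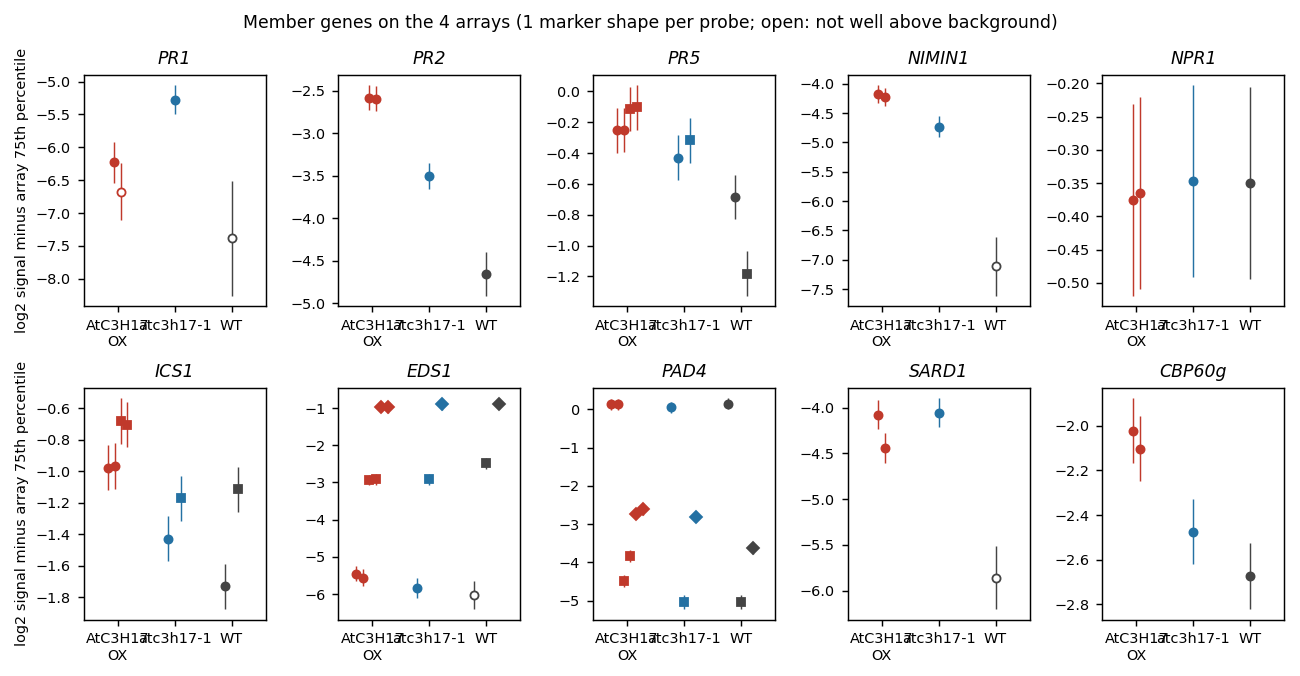
Level of each member gene on each array, as log2 signal minus the array's 75th percentile (y axis), in AtC3H17 OX (red, 2 arrays), atc3h17-1 (blue) and WT (grey). Marker shapes separate the probes of a gene, bars show the scanner software's error, and open markers were not well above background. PR2 and NIMIN1 fall in the order AtC3H17 OX, atc3h17-1, WT, whereas NPR1 has the same level on all 4 arrays within its error.

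Among the outputs, PR2 was the clearest. PR2 encodes a beta-1,3-glucanase that cuts fungal cell walls, and it is measured by 1 probe that was well above background on every array. Its level was 16.7% and 16.6% on the AtC3H17 OX arrays, 8.85% in atc3h17-1 and 3.97% in WT. PR2 was higher by 2.07 ± 0.30 in AtC3H17 OX and by 1.16 ± 0.30 in atc3h17-1 than in WT, and 0.91 ± 0.21 higher in AtC3H17 OX than in atc3h17-1, so each step of this order was larger than its error. Of all genes, 1.25% had a higher difference between AtC3H17 OX and WT, and 3.5% had a higher one between atc3h17-1 and WT.

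PR1, a cysteine-rich secreted protein and the standard marker of systemic acquired resistance, was close to the detection limit. Its level was 1.33% and 0.979% on the AtC3H17 OX arrays, of which only the first was well above background, 2.58% in atc3h17-1, where it was, and 0.599% in WT, where it was not. The order here was atc3h17-1, AtC3H17 OX, WT. In atc3h17-1 PR1 was 2.11 ± 0.90 above WT as measured, with a bound of at least 2.32-fold. In AtC3H17 OX the difference from WT was 0.93 ± 0.95, within its error, with a bound of at least 1.03-fold. The 2 AtC3H17 OX arrays differed by 0.445 for PR1, more than for any other member, and the difference of their mean from atc3h17-1 was -1.18 ± 0.44. That last difference was not called, because it was -0.95 on the first AtC3H17 OX array. With normexp background correction, an alternative estimate of the spot background, PR1 was at 0.77 in atc3h17-1 against WT. This is under the bound above, and PR1 was no longer called. In AtC3H17 OX against WT, normexp gave 0.27.

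PR5, a thaumatin-like protein, was read by 2 probes. Probe A_84_P14299 gave 84.0% and 84.2% in AtC3H17 OX, 74.3% in atc3h17-1 and 62.2% in WT. Probe A_84_P808719 gave 92.3% and 93.1% in AtC3H17 OX, 80.3% in atc3h17-1 and 44.1% in WT. Both probes put the genotypes in the order AtC3H17 OX, atc3h17-1, WT, and AtC3H17 OX and atc3h17-1 lay within 0.19 ± 0.14 of each other. The mean of the probes was 0.75 ± 0.14 above WT in AtC3H17 OX and 0.56 ± 0.14 above it in atc3h17-1, short of 2-fold in both. PR5 was thus not called. Probe A_84_P14299 alone gave 0.43 in AtC3H17 OX and 0.26 in atc3h17-1, and A_84_P808719 alone gave 1.07, past 2-fold, and 0.86.

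NIMIN1, the small NPR1-binding protein whose own gene is strongly induced by salicylate, was called in both lines. Its level was 5.53% and 5.34% in AtC3H17 OX, 3.77% in atc3h17-1 and 0.722% in WT, where it was not well above background. It was at least 4.88-fold higher in AtC3H17 OX and at least 3.38-fold higher in atc3h17-1 than in WT. Between the lines, AtC3H17 OX was 0.53 ± 0.23 above atc3h17-1. The differences from WT of 2.91 ± 0.53 and 2.39 ± 0.53 shrank to 1.43 and 1.13 with normexp, still past 2-fold but under the bounds above.

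NPR1, the salicylate receptor that NIMIN1 binds, was nearly level across the arrays. It stood at 77.1% and 77.7% in AtC3H17 OX, 78.6% in atc3h17-1 and 78.4% in WT. Its differences of -0.02 ± 0.20 and 0.00 ± 0.20 from WT and -0.02 ± 0.20 between the lines were all within the error.

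ICS1, which makes isochorismate, the precursor of salicylate, was read by 2 probes. A_84_P805915 gave 50.8% and 51.2% in AtC3H17 OX, 37.1% in atc3h17-1 and 30.1% in WT. A_84_P589894 gave 62.4% and 61.4% in AtC3H17 OX, 44.4% in atc3h17-1 and 46.2% in WT. On both probes AtC3H17 OX was the highest genotype, by 0.59 ± 0.14 over WT and 0.47 ± 0.14 over atc3h17-1 for the gene. The comparison of atc3h17-1 with WT was 0.12 ± 0.14, within the error, and the probes differed in its direction (0.30 and -0.06). No ICS1 difference reached 2-fold.

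Of the pair of transcription factors that act on ICS1, SARD1 was called in both lines and CBP60g in neither. SARD1 had 5.94% and 4.6% in AtC3H17 OX, 6.02% in atc3h17-1 and 1.72% in WT, where its spot was not well above background. As measured, it was 3.03-fold higher than WT in AtC3H17 OX (1.60 ± 0.38) and 3.49-fold higher in atc3h17-1 (1.80 ± 0.38). Its WT signal lay above that array's lowest signal well above background, so the bound equals the measured fold. The 2 lines did not differ beyond the error (-0.20 ± 0.22), and the AtC3H17 OX arrays themselves lay 0.370 apart. With normexp the SARD1 differences from WT were 1.11 and 1.28, still past 2-fold but under those bounds.

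CBP60g, the calmodulin-binding relative of SARD1, had 24.6% and 23.3% in AtC3H17 OX, 18.0% in atc3h17-1 and 15.7% in WT. It was 0.61 ± 0.21 above WT in AtC3H17 OX, 0.20 ± 0.21 above WT in atc3h17-1, within the error, and 0.41 ± 0.21 higher in AtC3H17 OX than in atc3h17-1. CBP60g and ICS1 shared this order on the array, with AtC3H17 OX above both other genotypes. The difference between atc3h17-1 and WT did not exceed the error for either gene as measured, but it did once the local trend over the array surface was removed (0.40 for CBP60g and 0.23 for ICS1).

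EDS1 and PAD4 encode lipase-like proteins that act as a complex, and each was read by 3 probes that disagreed. For EDS1, the brightest probe, A_84_P24101, gave 51.1% and 50.8% in AtC3H17 OX, 53.7% in atc3h17-1 and 54.1% in WT. Probe A_84_P825966 gave 13.1% and 13.3% in AtC3H17 OX, 13.3% in atc3h17-1 and 17.9% in WT. Probe A_84_P825958 gave 2.29% and 2.12% in AtC3H17 OX, 1.74% in atc3h17-1 and 1.53% in WT, where it was not well above background. Their differences between AtC3H17 OX and WT ran from -0.44 to 0.52, and the gene's mean was 0.00 ± 0.18 in AtC3H17 OX and -0.09 ± 0.18 in atc3h17-1. EDS1 has an adjacent copy in the Col-0 genome, here EDS1B (AT3G48080), with no other protein-coding gene between them, and how far the probes separate the copies was not tested. The single EDS1B probe was at -0.56 ± 0.21 in AtC3H17 OX and -0.64 ± 0.22 in atc3h17-1 against WT.

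For PAD4, the brightest probe, A_84_P118682, was level in all genotypes, with 109% and 110% in AtC3H17 OX, 104% in atc3h17-1 and 110% in WT. Probe A_84_P797990 gave 15.1% and 16.4% in AtC3H17 OX, 14.3% in atc3h17-1 and 8.10% in WT. Probe A_84_P799139 gave 4.43% and 7.04% in AtC3H17 OX, 3.04% in atc3h17-1 and 3.06% in WT, and it alone separated the 2 AtC3H17 OX arrays. The gene's mean of 0.61 ± 0.13 in AtC3H17 OX against WT came from both dimmer probes (0.87 and 0.96). That of 0.24 ± 0.13 in atc3h17-1 came from A_84_P797990 alone (0.82), since A_84_P799139 was at -0.01 there. The brightest probe gave -0.01 in AtC3H17 OX and -0.08 in atc3h17-1.

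**Figure D2:**
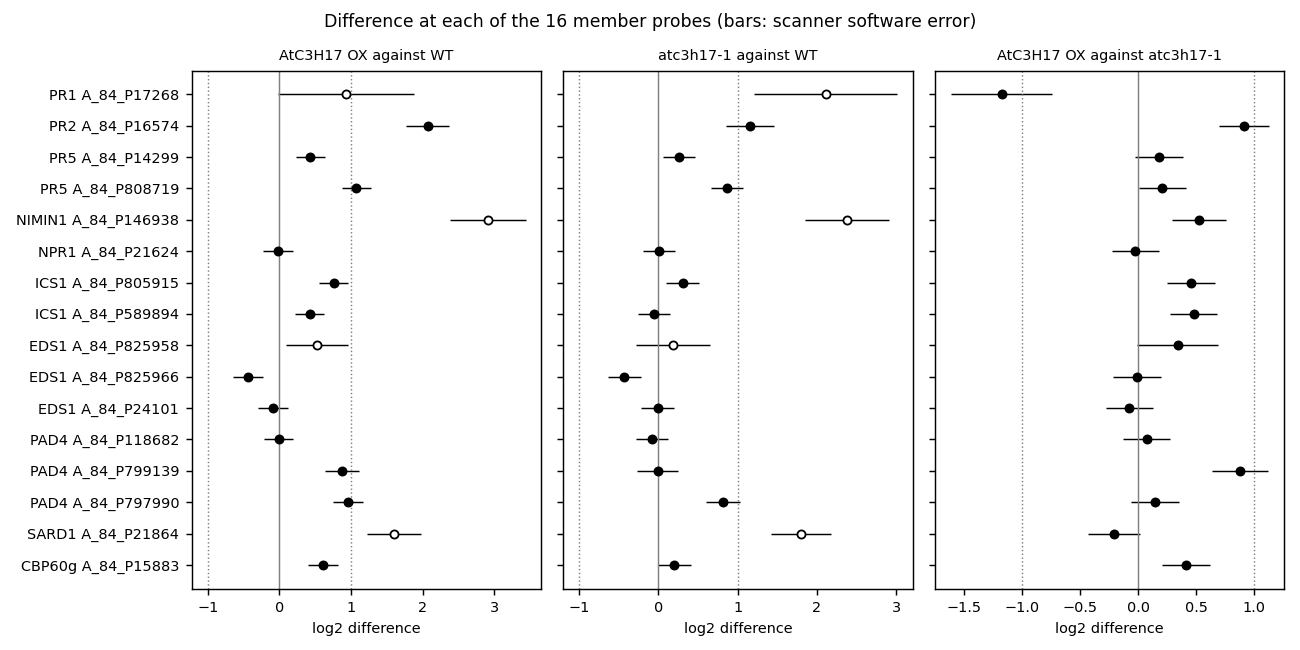
Log2 difference (x axis) at each of the 16 probes of the 10 genes for the 3 comparisons. Bars are the scanner software's error, and dotted lines mark 2-fold. Open points were not well above background in WT, and the measured value is plotted there with no bound applied. NIMIN1 and SARD1 lie beyond 2-fold from WT in both lines, while the PAD4 and EDS1 probes spread over nearly 1 log2 unit in the comparison of AtC3H17 OX with WT.

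Set against the whole array, 3 of the 10 genes were called higher in AtC3H17 OX than in WT (PR2, NIMIN1 and SARD1) and 0 lower, where 4.37% of all genes were called higher and 2.78% lower (894 and 568 genes, or 858 and 288 with normexp). The median difference of the 10 genes was 0.68, or 0.61 with PR1, NIMIN1 and SARD1 at their bounds, beside a median of -0.03 over all genes. In atc3h17-1, 4 of the 10 were higher than in WT (PR1, PR2, NIMIN1 and SARD1) and 0 lower, where 4.34% of all genes were called higher and 4.24% lower (889 and 868 genes, or 811 and 430 with normexp). The median there was 0.40, beside -0.02 over all genes. Both comparisons use the same WT array. PR1, NIMIN1 and SARD1 passed the filter on dim probes only through the lines in which they were brighter. The 4 genes called had 1 probe each, and among all genes with 1 probe 4.94% were higher in AtC3H17 OX and 5.3% in atc3h17-1. The 4 members with several probes had no call in any comparison, where 4.16%, 3.75% and 1.91% of all genes with several probes were called in either direction in AtC3H17 OX against WT, atc3h17-1 against WT and AtC3H17 OX against atc3h17-1. At such shares no call among 4 genes is what the background gives.

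Between the lines, AtC3H17 OX against atc3h17-1, none of the 10 genes was called in either direction, where 2.8% of all genes were called higher and 1.66% lower. This comparison does not use the WT array. PR2 at 0.91 ± 0.21 was nearest to 2-fold on the high side and PR1 at -1.18 ± 0.44 on the low side, and the median over the 10 genes was 0.28 beside -0.01 over all genes. On the second AtC3H17 OX array alone the PR1 difference was -1.40, but PR1 was not well above background there, so this value is not exact. With quantile normalization, which uses the same spot, the mean was -1.30 and PR1 was called lower.

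**Figure D3:**
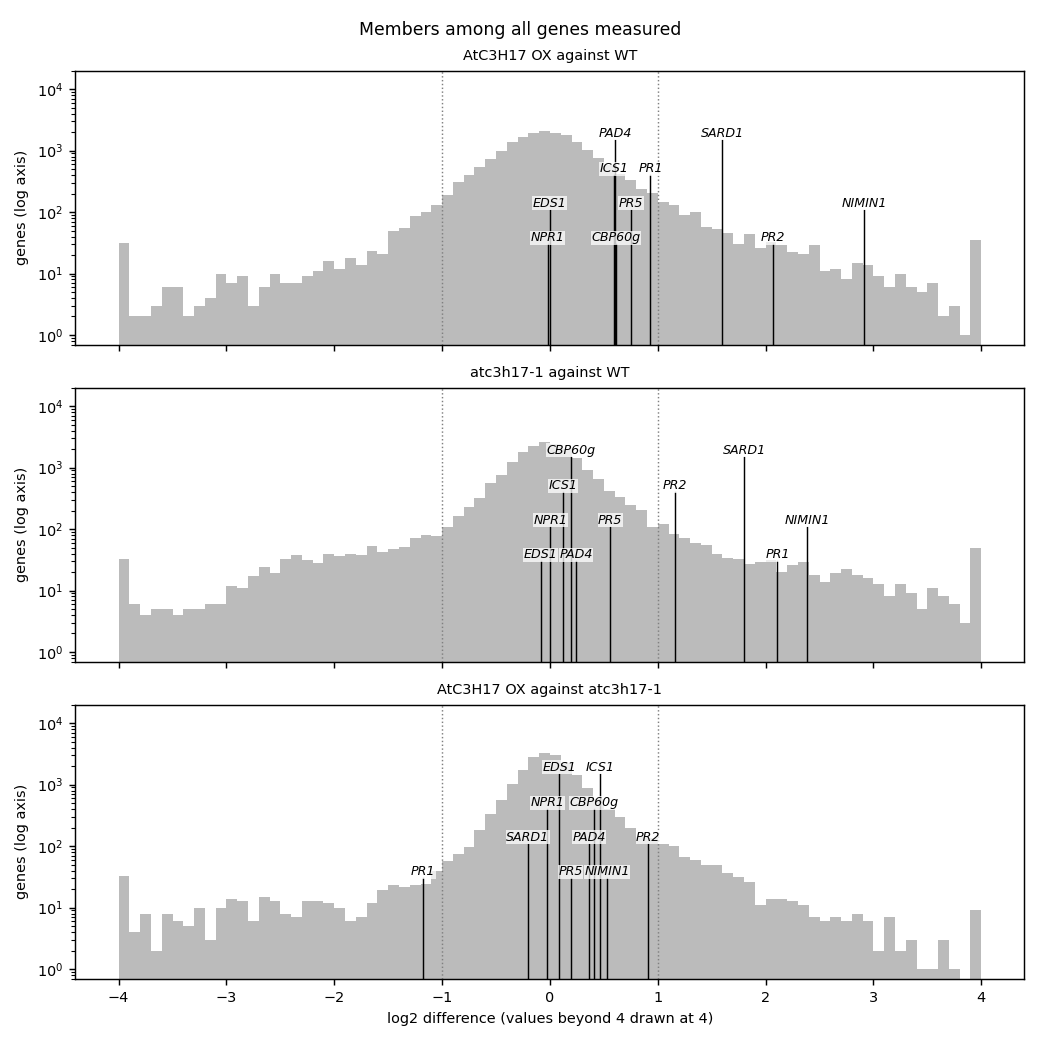
Histogram of the log2 difference of all 20461 genes (x axis, values beyond 4 drawn at 4) with the number of genes on a log axis, for the 3 comparisons, with the 10 genes marked by vertical lines and 2-fold by dotted lines. NIMIN1, PR2 and SARD1 lie in the upper tail against WT, NPR1 and EDS1 at the centre, and no member except PR1 lies beyond 2-fold between the lines.

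The probe disagreements were compared with the position of the spots. The signal of the WT array relative to the others varied over its surface. Around A_84_P808719 (PR5), the median difference between AtC3H17 OX and WT over 299 neighbouring spots was 0.33, and around the other PR5 probe it was -0.09 over 295 spots. With these medians subtracted, the 2 PR5 probes gave 0.74 and 0.53, a gap of 0.21 in place of 0.64. The gap between the EDS1 probes narrowed too, to 0.48 from 0.96, and that between the ICS1 probes changed little (0.28, against 0.34 as measured). For PAD4 the gap stayed, at 1.01 against 0.97. Around NIMIN1 and PR2 the medians were 0.01 and 0.07, around SARD1 0.20, around PR1 -0.30 and around CBP60g -0.23. CBP60g in AtC3H17 OX moved to 0.84 above WT with the trend removed. Once the trend was removed, PR1 in AtC3H17 OX was 1.23 above WT and passed 2-fold on both arrays, which made 4 called members. PR1 was not well above background in WT or on the second AtC3H17 OX array, so this value is not exact. With normexp the same PR1 difference was 0.27.

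**Figure D4:**
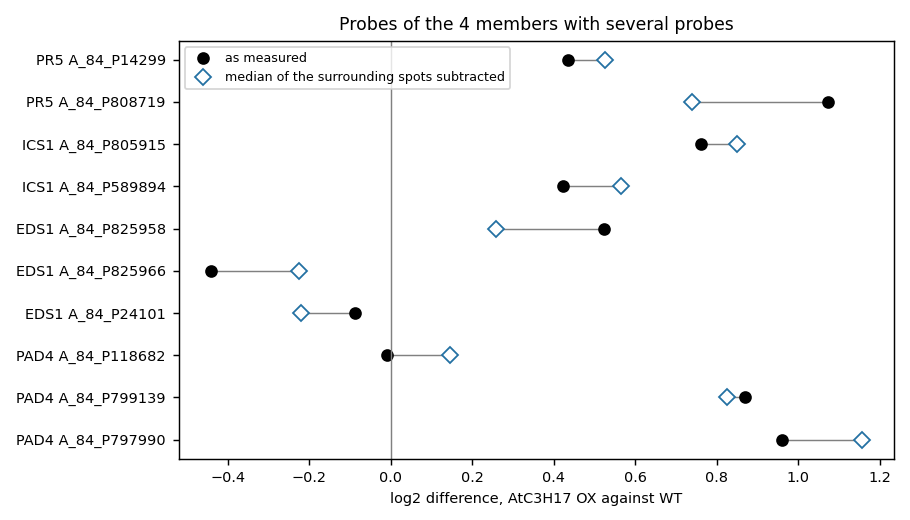
Log2 difference between AtC3H17 OX and WT (x axis) for the 10 probes of PR5, ICS1, EDS1 and PAD4, as measured (filled circles) and after subtraction of the median difference of the neighbouring spots (open diamonds). The PR5 probes move together to 0.53 and 0.74, and the PAD4 probes do not.

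The wider pathway was examined through 68 other genes in 7 lists, of which 62 were measured. CBP60a and ADR1-L1 had no matched probe, and NDR1, DLO2, BSMT1 and BG1 had none that passed the filter. Of the 62, 14 were called higher and 0 lower in AtC3H17 OX against WT, 13 higher and 0 lower in atc3h17-1 against WT, and 2 higher and 1 lower in AtC3H17 OX against atc3h17-1. Their medians were 0.23, 0.31 and 0.03. Over all genes 4.37% were called higher in AtC3H17 OX and 4.34% in atc3h17-1 against WT. Between the lines 2.8% were higher and 1.66% lower. For lists as short as those below, a count of 0 or 1 is close to what these shares give. All the counts can be set beside these shares, with a reservation. DLO1, WRKY50, WRKY51, WRKY62 and ALD1 were not well above background in WT. These genes entered through a line in which they were well above background, where WRKY50, WRKY62 and ALD1 were still dim. Against WT, the bound was below 2-fold for WRKY50, WRKY62 and ALD1 in AtC3H17 OX, and for WRKY50 and WRKY51 in atc3h17-1.

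In salicylate synthesis, 3 of 10 measured genes were called higher in each line against WT. ICS2, the second isochorismate synthase gene, was 2.46 ± 0.20 above WT in AtC3H17 OX and 2.02 ± 0.20 above it in atc3h17-1. Its single probe read 239% and 235% in AtC3H17 OX, 175% in atc3h17-1 and 43.0% in WT. PBS3, which conjugates isochorismate to glutamate, was at 1.63 ± 0.16 and 1.07 ± 0.16, but its 2 probes disagreed. They gave 0.75 and 2.51 in AtC3H17 OX, and 0.38 and 1.75 in atc3h17-1, so only 1 probe passed 2-fold. EPS1, which helps to release salicylate from that conjugate, was at 1.53 ± 0.21 and 1.35 ± 0.21. EDS5, the exporter of isochorismate from the chloroplast, was at -0.07 and -0.22.

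Among the enzymes that modify salicylate, 1 of 8 was called higher in each line, beside 4.37% of all genes in AtC3H17 OX and 4.34% in atc3h17-1. This was DLO1, a salicylate 3-hydroxylase. As measured, DLO1 was 3.77-fold higher than WT in AtC3H17 OX and 2.30-fold higher in atc3h17-1. Its WT signal, not well above background, lay above that array's lowest signal well above background, so the bound equals the measured fold. The errors of these differences were 0.37 and 0.38 on the log2 scale, and in atc3h17-1 the error reached below 2-fold. UGT74F2, a salicylate glucosyltransferase, was at 0.68 ± 0.20 and 0.78 ± 0.20. UGT76B1, a glucosyltransferase that acts on immune-active small molecules, was called between the lines, at 1.63 ± 0.53 for the mean of 2 probes. The dimmer probe was not well above background in atc3h17-1 or WT and gave only a bound of at least 1.07-fold between the lines, so the call rests on the brighter probe, at 1.47 ± 0.21. This probe read 34.0% and 32.8% in AtC3H17 OX, 12.0% in atc3h17-1 and 31.3% in WT, so atc3h17-1 had the lowest level there.

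Among NPR1 relatives and cofactors, 1 of 14 was called higher in each line, near the 4.37% of all genes in AtC3H17 OX and 4.34% in atc3h17-1. GRX480, a glutaredoxin that binds TGA factors, was 3.53 ± 0.28 above WT in AtC3H17 OX and 3.37 ± 0.28 above it in atc3h17-1, on the 1 of its 2 probes that passed the filter. The salicylate receptors NPR3 and NPR4 were at 0.42 ± 0.20 and 0.22 ± 0.20 in AtC3H17 OX, and at 0.60 ± 0.20 and 0.50 ± 0.20 in atc3h17-1. NIMIN2, another NPR1-binding protein, was at 0.92 ± 0.21 and 0.83 ± 0.21, just short of 2-fold in both lines, and TGA7 was at 0.75 ± 0.20 and 0.61 ± 0.20. The median of the list was 0.17 in AtC3H17 OX and 0.10 in atc3h17-1, with NPR1's own flat values near it. Among the 6 measured EDS1 partners and helper receptors none was called in any comparison, which is what such shares give for so few genes. ADR1, a helper immune receptor, was at 0.23 ± 0.20 in AtC3H17 OX and 0.48 ± 0.20 in atc3h17-1, and ADR1-L2 was at 0.28 ± 0.20 and 0.29 ± 0.20.

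The WRKY factors linked to salicylate were, of the 7 lists, the one with the highest median, 1.50 in AtC3H17 OX and 1.35 in atc3h17-1, or 0.69 and 0.90 with the dim genes at their bounds. That median draws on WRKY50, WRKY51 and WRKY62, which passed the filter on dim probes only through the lines. Of 8, 5 were called higher in each line (WRKY70, WRKY54, WRKY62, WRKY50 and WRKY51). Of these only WRKY70 and WRKY54 were well above background on every array. WRKY70 was at 1.14 ± 0.20 in AtC3H17 OX and 1.33 ± 0.20 in atc3h17-1. Not called were WRKY38 (0.73 and 0.55, with 1 of 2 probes dim in WT), WRKY18 (0.57 and 0.86) and WRKY53 (-0.25 and -0.07). WRKY54 was 2.38 ± 0.26 above WT in AtC3H17 OX and 1.93 ± 0.26 above it in atc3h17-1. WRKY50 was at least 1.58-fold higher in AtC3H17 OX and at least 1.85-fold higher in atc3h17-1, and WRKY62 at least 1.33-fold and at least 2.47-fold.

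Of 11 genes of systemic resistance and other outputs, 4 were called higher in AtC3H17 OX and 3 in atc3h17-1. FMO1, which makes the signal N-hydroxypipecolate, was at 2.62 ± 0.24 in AtC3H17 OX and 2.16 ± 0.24 in atc3h17-1. LURP1 was at 2.12 ± 0.25 and 2.28 ± 0.25, but its 2 probes disagreed. They gave 0.67 and 3.57 in AtC3H17 OX, and 0.75 and 3.81 in atc3h17-1. Only the second probe passed 2-fold, and it was not well above background in WT. ACD6, an ankyrin protein that promotes salicylate, was at 1.99 and 1.24. ALD1, which acts before FMO1, was at least 1.18-fold higher in AtC3H17 OX than in WT and at least 1.13-fold higher than in atc3h17-1, where as in WT it was not well above background.

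Among the relatives of the PR genes, none of the 5 measured was called against WT, which is what the shares of all genes called give for so few. PRB1, a basic PR1-like gene next to PR1 in the genome, read 11.6% and 12.0% in AtC3H17 OX, 37.6% in atc3h17-1 and 23.0% in WT. Its difference between AtC3H17 OX and atc3h17-1 was -1.67 ± 0.21, the only call in the lower direction among the 62 genes there. BG3, a glucanase gene that lies 1 gene away from PR2, was at -0.18 ± 0.22 in AtC3H17 OX and 0.73 ± 0.22 in atc3h17-1 against WT. PR3, a chitinase of the ethylene and jasmonate branch, was at 0.71 ± 0.14 and 0.15 ± 0.14.

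**Figure D5:**
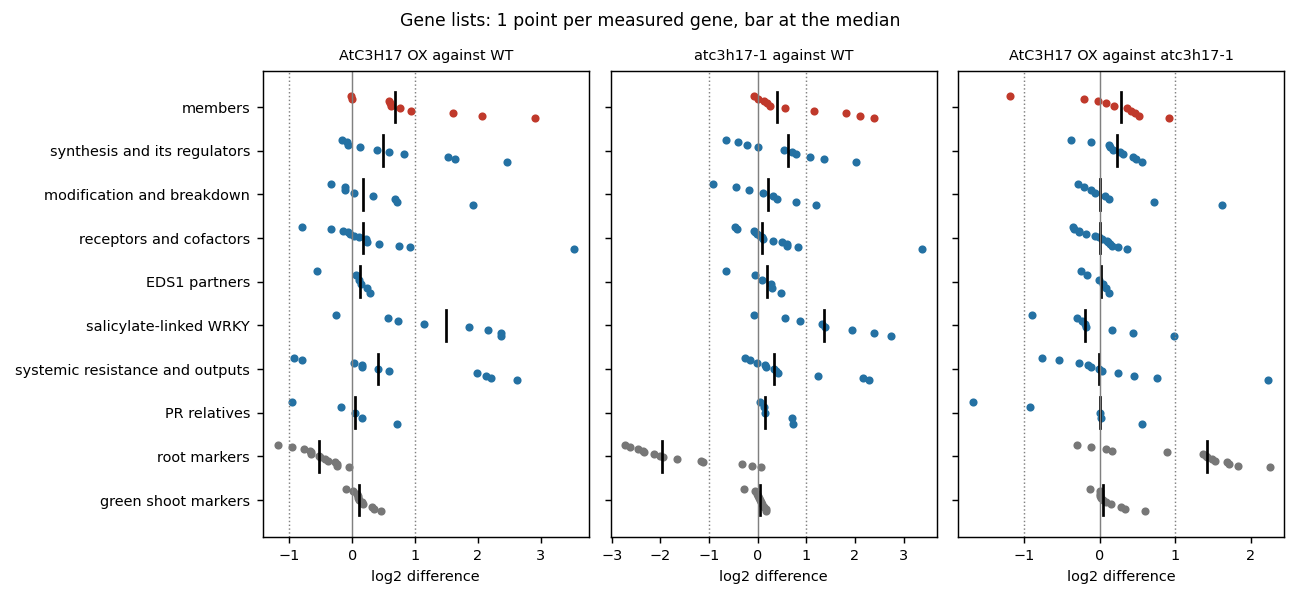
Log2 difference (x axis) of each measured gene, 1 point per gene, for the 10 members (red), the 7 other salicylate lists (blue) and the tissue marker lists (grey), with bars at the medians and dotted lines at 2-fold. Points are measured values, not bounds, for genes below background in 1 group. The WRKY list has the highest median in both comparisons with WT, but its WRKY50, WRKY51 and WRKY62 were not well above background in WT. Most root markers, but not all, lie far below WT in atc3h17-1.

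Tissue markers moved beside these values. All 11 green shoot markers and all 14 root markers were well above background in AtC3H17 OX and WT, and in atc3h17-1 the Casparian strip genes CASP4 and CASP5 were not. In atc3h17-1, 11 of 14 root markers were called lower than in WT, with a median of -1.98, and in AtC3H17 OX 1 of 14, with a median of -0.52. Over all genes 4.24% and 2.78% were called lower. The 3 not called in atc3h17-1 were SHR (-0.13), SCR (0.06) and PYK10 (-0.32), so the list did not fall as a whole. Between the lines 9 of 14 root markers were higher in AtC3H17 OX, with a median of 1.42, where 2.8% of all genes were. The summed signal of the root list, in units of each array's 75th percentile, was 28.6 and 28.9 in AtC3H17 OX, 27.1 in atc3h17-1 and 34.0 in WT. Most of that sum was the beta-glucosidase gene PYK10, and without it the sum was 3.42 and 3.36 in AtC3H17 OX, 1.96 in atc3h17-1 and 5.10 in WT. That of the green list was 940 and 928, 910, and 869, and no green marker was called (medians 0.10 and 0.04). The part of this difference in root markers in the salicylate values was not tested.

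The genes with the pattern most like a member's were sought by the Euclidean distance of their values on the 4 arrays, each minus its own mean, among 19178 genes well above background on all 4 arrays. For PR2 they were the arginine decarboxylase gene ADC2 (distance 0.0658, with 2.05 in AtC3H17 OX and 1.08 in atc3h17-1 against WT), AT1G19960 (0.0731) and AT5G37990 (0.0958). For PR5 they were AT2G37540, BCA6 and FMN/FHY, all within 0.0205. PR1 was left out because it was not well above background on every array. With 4 arrays such a likeness describes these samples only.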

How the data were processed

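RNA of 4 deposited seedling samples (2 of them counted as 1 here) was hybridised to 1-colour Agilent arrays. The deposited signals are linear intensity values. Per the file headers, the software was Agilent Feature Extraction 11.0.1.1, with a spatial background detrend and a multiplicative detrend inside each array and no scaling between arrays. The 0 or 1 spot marks and the error of each signal are other columns of the same deposited files. The authors' series value table holds the same intensity rounded.

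Processed signals were put on the log2 scale and the 75th percentile of the array was subtracted. Outlier and control spots were left out and repeated spots averaged. A probe stayed in where all arrays of some group had it well above background (32969 of 43603). Of the 43603 probes, 34348 (78.8%) matched 1 locus through transcript accessions of the TAIR10.1 table. Coordinates are not printed because the files name TAIR10. The value of a gene is the mean of its kept probes. Where a gene was not well above background in a group, "at least" sets that group to the higher of the array's lowest signal well above background and the gene's own.

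The genes, lists and rules were chosen with earlier results of these data known. All 10 members are described. From each other list up to 3 genes are named, by the largest difference from WT in either line (for AtC3H17 OX the smaller array difference), with ICS2, EDS1B, PRB1, BG3, NPR3 and NPR4 for their relation to members. EDS5, ACD6, WRKY70, WRKY51, WRKY38, WRKY18 and WRKY53 were named after their values were seen. Alternatives were normexp (offset 50, on median signals because the files hold no mean signal), quantile normalization, other filters, the brightest probe, the series value table, limma 3.58.1 with the AtC3H17 OX arrays as separate samples, and each AtC3H17 OX array alone. Removal of the local trend (medians within 10 rows and columns) and genes with several probes were added after the data were seen. Scripts ran in Python 3.11.15 and R 4.3.3 and were tested on simulated data. With so few arrays, their number limits the precision.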

Additional observations from a re-analysis of the deposited data

How the results depend on the processing

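No paired analysis was possible because only AtC3H17 OX has more than 1 array. Where each probe had to pass the background mark on all 4 arrays, the genes called numbered 940 of 19178 in AtC3H17 OX against WT (1462 of 20461 otherwise), 899 in atc3h17-1 against WT (1757 otherwise) and 409 in AtC3H17 OX against atc3h17-1 (912 otherwise). This filter removes PR1, NIMIN1 and SARD1 by construction, which left 1 called member of 7, PR2, higher than WT in each line. Of the 19178 genes, 591 were called higher than WT in AtC3H17 OX and 429 in atc3h17-1. For so few members, 1 call is close to what this background gives. Genes with several probes gave 252, 227 and 116 calls. With normexp the calls against WT were 858 higher and 288 lower in AtC3H17 OX, against 894 and 568 otherwise, and 811 and 430 in atc3h17-1, against 889 and 868 otherwise. Between the lines normexp gave 318, and the cause was not tested. With quantile normalization 1 member, PR1, was called lower between the lines. With 1 AtC3H17 OX array left out, the genes called were 1688 to 1690 against WT and 1074 to 1076 against atc3h17-1, and the members called 3 to 4 and 0 to 1, where PR1 was the member that changed. Of 241 values of single members under the alternatives, 219 stayed within the error of the main value, and no called member changed sign. Many of the 219 were fixed in advance. Dropping the filter on dim probes alters no member, and the brightest probe alters none of the 6 members with 1 probe. The series value table holds the same intensity rounded. The sign changed in 14 values, all of NPR1, EDS1, PAD4 or ICS1. limma was also run with the AtC3H17 OX arrays as separate samples. WT and atc3h17-1 had 1 array each, so its 1 residual degree of freedom came from the gap between the AtC3H17 OX arrays. Those arrays were counted as 1 sample here. The limma fit therefore gives no check between plants, and its calls are left out. PR1 and the other dim probes limit what these arrays can show, since WT gave only a bound for them.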
